A study of Silurus asotus with 15 samples.

Results

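The genes described here are the NLR and NACHT domain genes of the Amur catfish, *Silurus asotus*. They were chosen by annotated protein name: a locus was a member if its product name contained NACHT, NLR family or NLRC, whatever the case. The rule found 212 genes among the 25089 genes with expression values, and it used no measured value. The data came from an RNA-seq survey of 15 tissues of adult fish taken from a bottom habitat, with poly(A) RNA sequenced from 1 library per tissue. The tissues were skin, maxillary barbel, mandibular barbel, brain, gill, pituitary, heart, liver, pancreas, spleen, kidney, head kidney, muscle, ovary and testis. Barbels are the whisker-like sensory appendages around the mouth, and the head kidney of a bony fish is a blood-forming and lymphoid organ. The labels name no genotype, treatment, sex or number of fish, so it is unknown here whether libraries share an animal.

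NLR proteins are sensors inside the cell that respond to microbial products and to signs of damage. The typical member has a NACHT domain, which binds nucleotide and drives assembly into a complex, and leucine-rich repeats (LRR), which in many members take part in sensing. A PYD or CARD domain at the start of many members recruits the adaptor ASC or caspases, and the assembled complex, the inflammasome, matures interleukin-1 beta. Bony fishes carry a large, lineage-specific expansion of these genes beside the conserved members NOD1, NOD2, NLRC3, NLRC5 and NLRX1. A mammalian name such as NLRP12 or NLRP3 on a fish locus therefore records the closest named protein and not a one-to-one relation.

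Expression was given by the authors as FPKM, a fragment count scaled by gene length and by the total mapped, so that levels can be compared between genes per length. With 1 library per tissue and without replicates, no difference has a replicate check, and each count below follows a rule of size. The depth is unknown. The size of 1 fragment was estimated as the most common value, among those under 1, of FPKM times coding length in kb. On that estimate, 1 FPKM at a member of median length stood for 57.0 to 65.4 fragments in 11 libraries. It stood for 9.90 to 14.98 fragments in skin, both barbels and muscle, so low values were coarser in those 4. Defining genes of the labelled tissue were highest in their own library for pituitary, liver, pancreas, muscle, heart, ovary, testis, spleen, kidney and head kidney, and keratin 4 was at 2047 to 2823 FPKM in skin and both barbels. The libraries labelled brain and gill went against their labels. The 9 neuron and myelin markers summed to 2904 FPKM in the library labelled gill and to 3.35 FPKM in the library labelled brain, whereas the 8 keratinocyte markers summed to 1443 FPKM in the library labelled brain and to 19.8 FPKM in the library labelled gill. Both are named by label only, and some of the counts that rest on them are also given without them.

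By name, 94 of the 212 members were NLRP12, 54 were NLRP3, 45 were NLRC3 and 11 were NLRP1b. The remainder were NLRC5 with 3 loci, NWD1 and NWD2 with 2 each, and NLRX1 with 1. NLRP3 in mammals nucleates an inflammasome in response to ion flux, and NLRC3 in mammals is known as a brake on inflammatory signalling. The annotation recorded a NACHT motif at 101 members, a NACHT-associated domain at 110 and an LRR at 128, with NACHT and LRR together at 76. A CARD was recorded at 11 members, the FIIND, a self-cleaving domain of NLRP1, at 10, a B30.2 or SPRY domain at 5 and a PYD at 3. None of the NACHT, NACHT-associated and LRR motifs was recorded at 40 members. Outside the rule, 8 loci carried a NACHT motif, among them NOD1, NOD2 and the MHC class II transactivator CIITA.

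Many members were short or incomplete gene models. Coding lengths ran from 177 to 10101 bases with a median of 1305 bases, against 1158 bases over all loci, and 95 members were under 1 kb. At least 1 end was marked incomplete at 165 members (77.8%), against 48.0% of all annotated loci. The sole locus of its scaffold was a member in 115 cases (54.2% of members), against 8.84% of all loci. In all, the members lay on 176 of 2648 scaffolds. Near-identical copies can share reads, and the sources used here give no counting rule for such reads, so the level of any single member with close copies is uncertain.

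Most members were expressed at low levels in several tissues. A gene was counted as detected at 1 FPKM or more, and 197 members (85.2% of all genes) reached that in at least 1 library. The comparison share of all genes stands in parentheses here and below. Without the libraries labelled brain and gill, 191 members were detected, and the matching share of all genes is not given here. In every library, 7 members were detected (22.6% of all genes), and 41 members were detected in all 14 libraries other than ovary, where 23.6% of all genes were. The median member was detected in 10 libraries, against 7 for the median gene. The remaining 15 members reached 1 FPKM in none of the 15 libraries, though each was above 0 in at least 1. Levels were modest: the highest value of any member was 48.5 FPKM, and 62 members (53.7% of all genes) reached 10 FPKM in some library.

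The number of detected members differed between libraries more than the number of detected genes. The library labelled brain had 184 members detected (56.3% of all genes) and spleen 169 (55.8% of all genes). Heart followed with 164 (54.5% of all genes), testis with 156 (63.2% of all genes) and skin with 149 (43.8% of all genes). Kidney had 142 (52.9% of all genes), head kidney 141 (51.3% of all genes) and the library labelled gill 133 (59% of all genes). Maxillary barbel and pituitary had 129 each (43.4% and 56.1% of all genes), and mandibular barbel had 117 (43.6% of all genes). Muscle had 81 (39.2% of all genes), liver 72 (41.3% of all genes), pancreas 57 (39.7% of all genes) and ovary 11 (47.5% of all genes). As a share of the 212 members, these counts ran from 5.19% in ovary to 86.8% in the library labelled brain. As deposited, the share of members detected was below the share of all genes in ovary, muscle, liver and pancreas and above it in the other 11 libraries, but among these 4 only ovary was below on each of the 3 scales used. After rescaling by median ratios, which sets the libraries to a common level over widely expressed genes, muscle was at 53.8% of members against 45.1% of genes, liver at 49.1% against 48.9% and pancreas at 49.1% against 48.6%. With the FPKM of every library rescaled to a common sum, muscle was above (41.5% against 40.5%), liver and pancreas were below, and pituitary turned to below (50.9% against 53.4%). The count of detected members in pancreas moved from 57 to 104 and 25 on these scales, and that in ovary from 11 to 7 and 11.

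**Figure D1:**
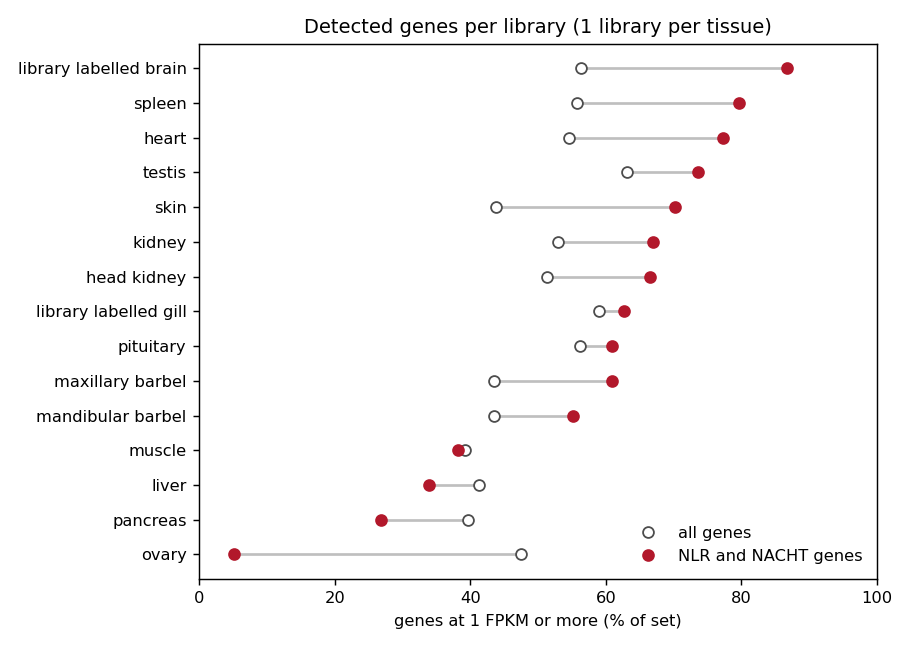
Share of the 212 NLR and NACHT genes (filled points) and of all 25089 genes (open points) at 1 FPKM or more, in percent of each set, for each of the 15 libraries, with 1 library per tissue. Ovary stands apart with 5.19% of the members against 47.5% of all genes, and skin has 70.3% of the members against 43.8% of all genes.

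Ovary was the library with the least expression of these genes. The median member had 0.166 FPKM in ovary, where the median gene had 0.747 FPKM. In the other libraries the members' median was lowest in pancreas (0.502 FPKM), liver (0.515) and muscle (0.658). It was highest in heart (2.96 FPKM), spleen (3.59) and the library labelled brain (4.48). The median gene was also low in pancreas, liver and muscle, at 0.463, 0.468 and 0.397 FPKM, and the members lay above it there. In testis, pituitary and the library labelled gill the members' median was below the median gene. There it was 2.20, 1.28 and 1.75 FPKM, against 2.67, 1.56 and 1.99 FPKM. Among the 197 members detected anywhere, 142 had their lowest value in ovary (8.99% of all genes detected anywhere). That count was 139 without the libraries labelled brain and gill, where the matching share of genes is not given here. It was 164 after median ratios (20.2% of genes) and 137 with a common sum (8.92% of genes). For each gene, the log2(FPKM + 1) in a library was set against its mean over the other 14 libraries; this scale, with a pseudocount of 1, understates the change of low genes. The median difference in ovary was -1.13 for members and -0.04 for all genes. In ovary, 5 of the 212 members lay above the mean of the other libraries, and the matching share of all genes is not given here.

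**Figure D2:**
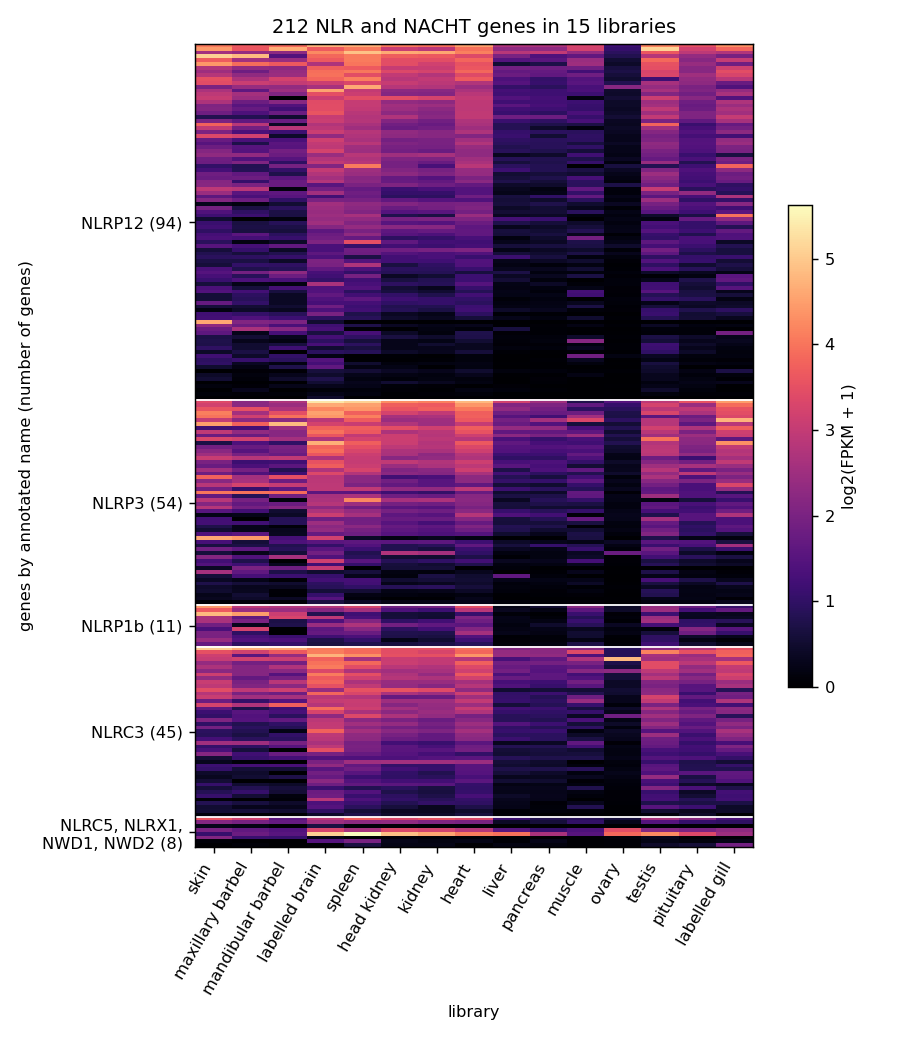
Heat map of log2(FPKM + 1) for the 212 genes (rows, grouped by annotated name, with the number of genes in parentheses) in the 15 libraries (columns). The ovary column is dark for nearly every row, with the NLRC3-like locus at 26.8 FPKM as the brightest cell. The columns of liver, pancreas and muscle are dim, and there the median of all genes is also low, at 0.468, 0.463 and 0.397 FPKM.

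General leukocyte markers were also lowest in ovary, while the summed markers of single blood cell types were not lowest there. The 4 markers found by name, which are CD45, coronin-1A, plastin-2 and lymphocyte cytosolic protein 2, summed to 7.52 FPKM in ovary, and each of the 4 had its lowest value there, from 0.61 to 2.87 FPKM. None was at 0. Their sum was 26.4 FPKM in liver, 31.0 in muscle and 33.4 in pancreas, the other libraries with few members detected. It was little higher in maxillary and mandibular barbel, at 41.3 and 41.0 FPKM, where 129 and 117 members were detected. The library labelled gill was at 49.2 FPKM with 133 members detected, and pituitary at 62.5 FPKM with 129. The macrophage markers summed to 24.2 FPKM in ovary, above 8.90 in muscle, 8.996 in liver and 15.9 in skin, and 1 of 18 was lowest in ovary. The T and B cell markers summed to 21.5 FPKM in ovary, against 4.18 in muscle and 7.74 in liver, and 0 of 26 were lowest there. The granulocyte markers summed to 43.9 FPKM in ovary, against 19.99 in muscle and 34.9 in skin, and 2 of 19 were lowest there. A gene tied at its lowest value, as at 0 in several libraries, counts as lowest in none of them. This limits the counts of lowest markers, since the median T and B cell marker was at 0 in skin, both barbels and muscle. At the upper end, the leukocyte sum was 1525 FPKM in head kidney, 1241 in kidney, 543 in spleen, 304 in heart and 273 in the library labelled brain, whereas the members' medians were higher in the library labelled brain, spleen and heart than in head kidney and kidney. Over these libraries alone, the median of the 19 granulocyte markers had that second order. It was 18.8 FPKM in the library labelled brain, 4.68 in spleen, 3.29 in heart, 1.23 in head kidney and 1.11 in kidney. The medians of the other blood cell lists did not have that order. For leukocytes it was 411 FPKM in head kidney and 67.0 in the library labelled brain. For T and B cells it was 0.749 and 0.212 FPKM there, and for macrophages 0.136 FPKM in kidney and 0.0125 in spleen. Skin departed from the granulocyte match, with a members' median of 2.24 FPKM, above head kidney and kidney, and a granulocyte median of 0.849 FPKM, below both. Testis was above head kidney and kidney for both, at 2.20 and 1.49 FPKM. The sum of these markers did not have that second order. It was 5995 FPKM in head kidney, 5116 in kidney, 920 in the library labelled brain, 599 in heart and 537 in spleen. In whole-tissue RNA, fewer cells of a type and less RNA per cell cannot be told apart, and the part of leukocyte or granulocyte content in these levels was not tested.

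The members that were expressed in ovary were few. C0J50_15476, an NLRC3-like locus with 2 exons and 1662 coding bases (scaffold178137, 1806438 to 1808179), had 26.8 FPKM in ovary, 12.7 in the library labelled brain, a median of 6.11 over the 15 libraries and its lowest value of 1.48 in liver. Its ovary value was thus the highest of the 15 and the highest of any member in ovary. Ovary was the highest library of 2 members, this locus and NLRX1, and of 1 member after median ratios. C0J50_20301, NLRX1, a member known in mammals from mitochondria, had 9.97 FPKM in ovary, 9.12 in head kidney, 8.66 in the library labelled brain and 1.12 in pancreas, its lowest. C0J50_09712, an NWD1-like locus with WD repeats in place of LRR and 29 exons (scaffold5330, 985689 to 1007185), had 13.3 FPKM in ovary and 48.5 in spleen, the highest value of any member, with 33.3 in the library labelled brain and 1.14 in skin. C0J50_18587, named NLRC3 without a suffix, had 3.80 FPKM in ovary within a range of 1.79 in pancreas to 9.08 in the library labelled brain. The other 7 members detected in ovary lay between 1.08 and 3.56 FPKM there. Of the 7 members detected in every library, 4 were these, and the other 3 were C0J50_06736, C0J50_09588 and C0J50_13339, each at no more than 1.28 FPKM in ovary.

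Between the gonads, the members were mostly higher in testis. By the pair rule, which asks for a log2(FPKM + 1) difference of at least 2 (4-fold) with the higher library at 5 FPKM or more, 33 members were higher in testis (8.22% of all genes) and 1 in ovary (5.33% of all genes). The member higher in ovary was C0J50_15476, with 26.8 against 4.72 FPKM. C0J50_09588, an NLRP12-like locus, had 1.08 FPKM in ovary and 33.4 in testis, its highest library. Its model holds only 177 coding bases, so its level per length rests on a short stretch. C0J50_13647, also NLRP12-like, had 0.260 against 12.9 FPKM and C0J50_10835, named NLRP3, 0.529 against 14.6 FPKM. As deposited, 204 of 212 members were above their ovary value in testis, and the matching share of all genes is not given here. The median log2 difference was -1.36 for ovary minus testis, against -0.10 for all genes. After median ratios, 17 members were higher in testis, a share of 8.02% near the 6.64% of all genes, and 0 in ovary (2.92% of genes).

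The members most often had their highest value in the library labelled brain. That was so for 95 of the 197 members (8.45% of all genes detected anywhere), followed by spleen with 30 (8.05% of genes), skin with 26 (3.73% of genes), testis with 15 (10% of genes), the library labelled gill with 9 (17% of genes) and mandibular barbel with 7 (2.42% of genes). Ovary was the highest library of 2 members (23.5% of genes). These shares depended on the scale. After median ratios, skin was the highest library of 80 members (9.90% of genes) and the library labelled brain of 39 (4.42% of genes). With a common sum the library labelled brain had 74 (7.43% of genes) and skin 51 (7.18% of genes). Of the 19 granulocyte markers, 8 were also highest in the library labelled brain, and their part in these counts was not tested. Without the libraries labelled brain and gill, spleen was the highest library of 90 members, skin of 32, testis of 21 and heart of 20. The matching shares of all genes are not given here, so these counts have no background beside them.

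Relative to all genes, the members stood highest in the same 4 libraries on each of the 3 scales. The median log2 difference of members less that of all genes was 0.95 in the library labelled brain, 0.78 in spleen, 0.55 in heart and 0.51 in skin as deposited. It was 0.61, 0.60, 0.40 and 0.83 after median ratios, and 0.93, 0.69, 0.51 and 0.80 with a common sum. Ovary was at -1.08, -1.02 and -1.13. In kidney the sign depended on the scale (0.14, -0.04 and 0.05), and in testis it was near 0 on each (-0.00, -0.07 and -0.04).

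**Figure D3:**
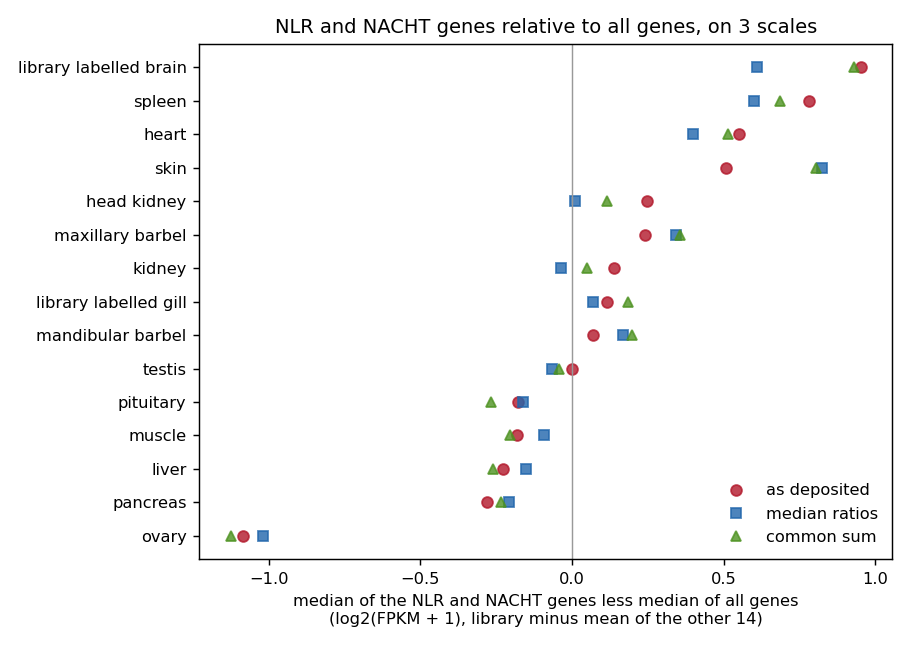
Median over the 212 genes less the median over all genes of log2(FPKM + 1) in a library minus the mean of the other 14 libraries, on the deposited scale (circles), after median ratios (squares) and after scaling to a common sum (triangles). Ovary lies between -1.02 and -1.13, while the library labelled brain, spleen, heart and skin are the 4 highest on each scale, from 0.40 to 0.95.

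C0J50_06736, named NLRP12 (scaffold613, 26071 to 33896, 6 exons), had the highest mean log2 level of the members. It had 25.9 FPKM in the library labelled brain, 24.5 in spleen, 21.6 in heart, a median of 14.3 over the 15 libraries and 1.28 in ovary. C0J50_09578, an NLRP3-like locus of 177 coding bases, had 39.9 FPKM in the library labelled brain, 33.3 in spleen, 27.1 in heart and 0.6996 in muscle. C0J50_08778, named NLRC3, reached 25.6 FPKM in the library labelled brain, with heart at 19.998, spleen at 19.0 and ovary at 0.815. These 3 had the same leading libraries, and all 3 were among the members lowest in ovary or muscle. Between heart and muscle, 22 members were higher in heart (8.82% of all genes) and 0 in muscle (1.64% of all genes), led by C0J50_09578. After median ratios the counts were 7, a share of 3.30% below the 5.03% of all genes, and 1 (2.93% of genes).

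Strong bias to a single tissue was rare. A gene was tissue-enriched if it reached 5 FPKM in its highest library and led the second library by 5-fold in log2(FPKM + 1), and 1 member passed (9.38% of all genes). This was C0J50_17311, an NLRP12-like locus with 7 exons and 2874 coding bases (scaffold178182, 65956 to 74844). It had 23.4 FPKM in skin, 3.29 in maxillary and 3.13 in mandibular barbel, and 0.427 in the library labelled brain. Muscle had 0.0230 FPKM, testis 0.0151, spleen 0.00760 and ovary 0.000365, and the other 7 libraries listed it at 0. The highest value outside skin and barbels was that of the library labelled brain, which also held keratinocyte markers at 1443 FPKM in sum. The gene passed with either barbel or the libraries labelled brain and gill left out and on both other scales, but not under a 10-fold rule.

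Next to that gene stood members with a smaller lead. On the log2(FPKM + 1) scale, 19 members (8.96%) had a lead of at least 2-fold over their second library, against 30.1% of all genes. C0J50_00064, named NLRP12, had 23.6 FPKM in spleen and 6.09 in head kidney, with 0.872 in pancreas as its lowest. C0J50_19434, an NLRP12 locus of a single exon, had 3.55 FPKM in muscle and 0.953 in the library labelled brain. C0J50_15027, named NWD2, reached 2.66 FPKM in the library labelled gill, next to 0.594 in spleen, and it was detected in no other library. C0J50_02283, an NWD2-like locus, was not among the 19, with 2.89 FPKM in spleen and 1.78 in the library labelled brain and at most 0.218 FPKM in the other 13. C0J50_09159, named NLRP3 and chosen after its values were seen, reached 25.6 FPKM in the library labelled gill, next to 11.9 in spleen. C0J50_14424, named NWD1, was lower in level, with 3.38 FPKM in skin, 1.17 in maxillary and 1.12 in mandibular barbel, and no more than 0.226 elsewhere.

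Skin and both barbels shared a set of members. The group rule asked that the lowest of the 3 libraries reach 1 FPKM and exceed every library outside, and 11 members passed (2.44% of all genes). Leaving out the libraries labelled brain and gill gave 14 members, with the matching share of genes not given here. Median ratios gave 30 (6.13% of genes) and a common sum 26 (4.91% of genes). None passed with the lowest of the 3 at 5 FPKM or more and 5-fold above every library outside. C0J50_11084, an NLRC3-like locus of 183 coding bases, had 32.2 FPKM in skin, 24.6 in maxillary and 22.9 in mandibular barbel, against 15.8 in the library labelled brain and 0.922 in ovary. C0J50_23780, named NLRP3, had 15.2, 14.7 and 13.7 FPKM in these 3 libraries and 2.35 in heart, the highest outside. C0J50_08099, NLRP3-like, had 21.4, 12.6 and 27.3 FPKM and 8.37 in the library labelled brain. In 7 of the 11 members, the highest library outside the group was the library labelled brain. With that library placed in the group, an arrangement chosen after the values were seen, 7 members passed (1.76% of all genes), 12 after median ratios (2.10% of genes) and 13 with a common sum (2.63% of genes). They included C0J50_19997, named NLRP3, with 23.2 FPKM in skin, 20.5 in maxillary barbel, 8.04 in the library labelled brain, 1.42 in mandibular barbel and 0.691 in testis. Keratinocyte markers were high in the same 4 libraries, at 1443 to 3115 FPKM in sum, and at no more than 44.4 FPKM in the other 11, and their part in these levels was not tested.

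Between the barbels, 6 members were higher in maxillary barbel (0.124% of all genes) and 0 in mandibular barbel (0.0837% of all genes). C0J50_07909, named NLRP12, had 27.4 FPKM in maxillary and 1.73 in mandibular barbel, and skin, at 33.3 FPKM, was on the maxillary side. C0J50_19997 followed the same order, with 20.5 against 1.42 FPKM. C0J50_10968, named NLRP1b, reached 8.32 FPKM in maxillary barbel, while mandibular barbel listed it at 0. In mandibular barbel, 1 FPKM is estimated at 11.4 fragments at the median length of 1305 bases. This locus has 261 coding bases, where 1 FPKM stands for fewer fragments, so its 0 is coarser. The median difference over all members was small, at 0.05 on the log2 scale.

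The 11 loci named NLRP1b differed from the other members in tissue and in sequence motifs. In mice NLRP1b is an inflammasome sensor that is triggered when proteases cleave it, and its FIIND and CARD lie at the far end of the protein. Of the 11 catfish loci, 9 carried the FIIND motif, 8 a CARD and 0 a NACHT or LRR motif, and their median coding length was 762 bases, so the models cover at most a part of the mammalian protein. Skin was the highest library of 7 of the 11, against 19 of the other 186 detected members (3.73% of all genes). After median ratios these counts were 9 and 71 of 185, where 9.90% of genes were highest in skin, and with a common sum 7 and 44 of 186, where 7.18% were. All 11 were detected in skin and 10 in spleen and in heart, 4 in head kidney, and 0 in liver, pancreas and ovary. These loci were singled out after their values were seen.

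C0J50_10479 had the highest value among them, with 27.1 FPKM in skin, 21.3 in maxillary barbel and 7.46 in mandibular barbel (scaffold10249, 1384 to 3627). Its next values were 1.31 FPKM in spleen and 1.22 in testis, and its lowest was 0.0282 in pancreas. C0J50_11317 had 20.7 FPKM in skin, 9.996 in heart, 8.53 in spleen and 0.194 in liver. C0J50_12455 had 11.7 FPKM in skin, 6.28 in heart, 5.01 in spleen and 0.163 in pancreas. C0J50_13652 had 5.32 FPKM in skin, 4.93 in testis and 0.0426 in ovary. Skin led in each of these 4, and the second place went to a barbel, heart or testis. The exceptions to the lead of skin were C0J50_09759, at 8.57 FPKM in mandibular barbel, C0J50_10968 in maxillary barbel, C0J50_10969, at 5.01 FPKM in heart, and C0J50_19928, at 5.59 FPKM in spleen.

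**Figure D4:**
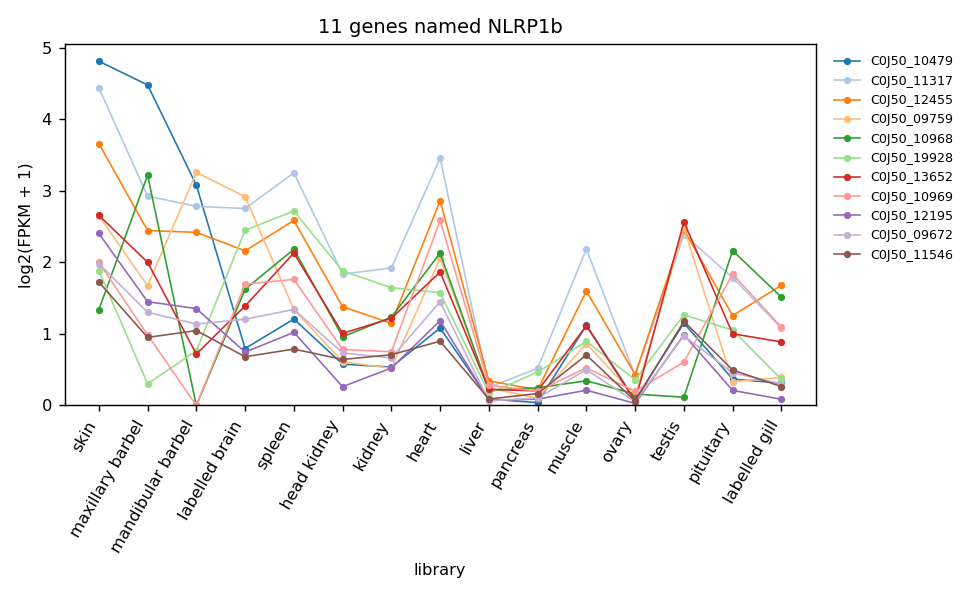
log2(FPKM + 1) of the 11 loci named NLRP1b in the 15 libraries, 1 line per locus; the lines join the values of a locus and stand for no order of tissues. Skin is the highest library of 7 loci, and all 11 lie under 1 FPKM, which is 1 on this axis, in liver, pancreas and ovary.

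The blood-forming tissues showed a share of members near that of all genes as deposited and below it on both other scales. In kidney, head kidney and spleen, 7 members passed the same group rule (3.30% of members and 2.85% of all genes). Without the libraries labelled brain and gill, 10 passed, and the matching share of genes is not given here. After median ratios 2 passed (0.943% of members and 2.11% of genes), and with a common sum 1 (0.472% of members and 2.43% of genes). C0J50_06145, named NLRP12, had 29.0 FPKM in spleen, 23.9 in head kidney and 23.1 in kidney, against 18.1 in the library labelled brain, and its lowest value was 0.910 in ovary. C0J50_09684, an NLRC3-like locus, had 4.75 to 4.95 FPKM in the 3 tissues, 4.51 in heart and 0 in muscle. The margin over the libraries outside was small for both. Between kidney and head kidney, 0 members passed the pair rule in either direction, near the background of 0.47% of all genes higher in kidney and 0.0359% in head kidney. Between head kidney and spleen, 2 members were higher in spleen (2.54% of all genes) and 0 in head kidney (1.3% of all genes). They were C0J50_12548, with 15.9 against 2.85 FPKM, and C0J50_11261, with 5.56 against 0.584 FPKM, both NLRP12 by name. Without that threshold, 194 of the 212 members were higher in spleen than in head kidney as deposited, and the matching share of all genes is not given here. The median log2 difference was -0.43 for head kidney minus spleen, against -0.00 for all genes. Leukocyte markers had the opposite order, at 1525 FPKM in head kidney and 543 in spleen, while T and B cell markers were at 803 and 1908 FPKM. Macrophage markers were at 321 and 306 FPKM and granulocyte markers at 5995 and 537 FPKM, and the part of cell content was not tested.

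The 2 remaining pairs gave few members. Between liver and pancreas no member differed by the rule (3.56% of all genes higher in liver and 1.26% in pancreas), and 4 members reached 5 FPKM in either. Between the libraries labelled brain and gill, 6 members were higher in the first (7.73% of all genes) and 0 in the second (8.67% of all genes). C0J50_03223, named NLRP3, reached 6.99 FPKM in the library labelled brain, next to 2.99 in maxillary and 2.57 in mandibular barbel and 0.00122 in the library labelled gill. After median ratios these counts were 3 (4.59% of genes) and 2 (10.1% of genes), and with a common sum 5 (5.88%) and 2 (11.2%). As deposited, 198 of 212 members had the higher value in the library labelled brain. The matching share of all genes is not given here. The median log2 difference, labelled brain minus labelled gill, was 0.82 for members, against 0.00 for all genes.

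Among the conserved members, NLRC5 is a factor that switches on MHC class I genes in mammals. Its 3 loci differed in level. C0J50_24559 had 11.9 FPKM in spleen, 11.02 in skin, 10.6 in kidney and 0.554 in ovary. C0J50_17164, with 42 exons the most of any member, had 4.61 FPKM in the library labelled brain, 3.998 in head kidney and 0.214 in ovary. C0J50_23815 reached 0.591 FPKM at most, in the library labelled brain. Of 7 genes of the MHC class I pathway found by name, 5 had their lowest value in ovary too (8.99% of all genes detected anywhere). The immunoproteasome subunit beta type-8 was at 1.78 FPKM in ovary and at 132 in the library labelled brain. C0J50_16797, named NLRC3, had 10.9 FPKM in head kidney, 10.7 in spleen, 10.1 in skin and 0.426 in liver.

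As annotated, scaffold clusters held a small share of the members. A cluster was a run of at least 3 members with at most 200 kb between neighbours, and 6 clusters held 21 of the 212 members. The 115 members that were the sole locus of their scaffold could not join a cluster. The clustered share is therefore limited by the scaffolds and does not give the layout of the family in the genome. Positions are those of the deposited annotation, counted from 1, and the sources used here name no build. The largest cluster lay on scaffold178210 from 31650 to 479829, with 5 members on the minus strand, C0J50_19431 to C0J50_19435, and 0 other loci among them. Its members were at low levels and had no common library. C0J50_19431 was highest in spleen (1.33 FPKM), C0J50_19432 in skin (2.27 FPKM), C0J50_19433 in the library labelled brain (1.39 FPKM), and C0J50_19434 and C0J50_19435 in muscle (3.55 and 2.74 FPKM). Muscle was the highest library of 3 of the 197 members in all (4.07% of all genes detected anywhere). The next cluster lay on scaffold558 from 899303 to 1218526, with 4 members and 9 other loci among them. Its leading member, C0J50_06126, had 8.61 FPKM in spleen and 7.80 in heart, and the other 3 were at 2.17 FPKM or less. The cluster on scaffold178109 from 20009 to 201902 held C0J50_13648, named NLRP12 (15.9 FPKM in spleen), C0J50_13647 (12.9 in testis and 12.6 in skin) and the NLRP1b locus C0J50_13652 (5.32 in skin). On scaffold4, from 915 to 118232, C0J50_00001 reached 1.26 FPKM in mandibular barbel, C0J50_00002 reached 0.813 in testis and C0J50_00003 reached 0.969 in the library labelled brain. None of the 21 clustered members was detected in ovary, which is near the share over all 212 members (11, or 5.19%). Of the 21, 18 were detected in at least 1 library. The median highest value of the 21 was 2.74 FPKM, against 5.87 FPKM over all 212.

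**Figure D5:**
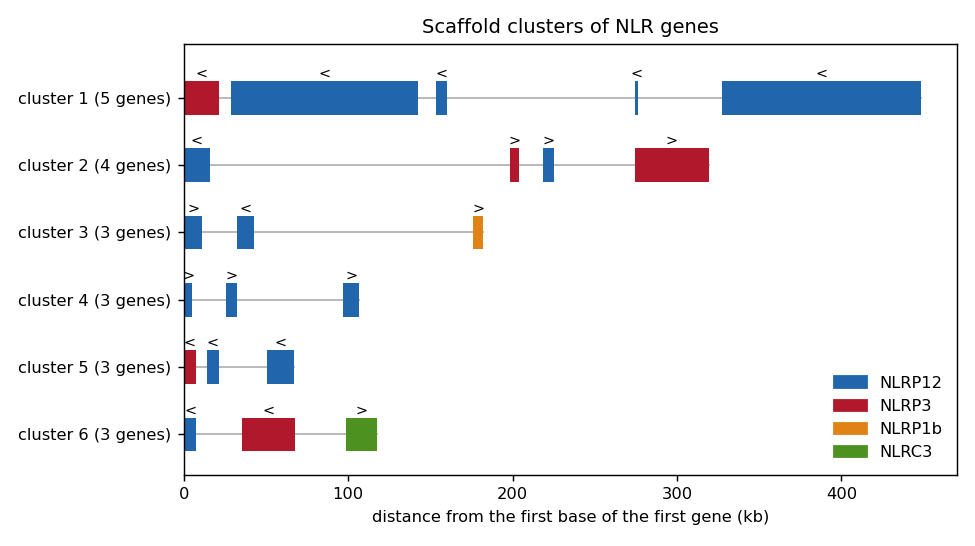
Position of the 21 members in the 6 clusters, in kb from the first base of the first member, coloured by annotated name; a mark above each box gives the strand (> plus, < minus). The largest cluster, with 5 members, spans 448 kb, and 3 of the 6 clusters have all members on 1 strand.

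On the deposited scale, neighbouring members tended to vary together, as members in general did. The correlation for pairs of all genes is not given here, so it is unknown whether this exceeds that of other genes. Over the 15 libraries, the Spearman correlation of log levels had a median of 0.75 among the 18 pairs of members with no locus between them, from 0.425 to 0.950. Among the 22310 pairs on different scaffolds the median was 0.62. The pairs share libraries, depth and, where sequences are alike, possibly reads, so these values are descriptions. Of the 18 adjacent pairs, 15 lay on the same strand and 5 had the same highest library. Both counts have no background beside them, and 95 of the 197 members detected anywhere were highest in the library labelled brain. The closest agreement within a cluster was on scaffold29688, where 3 members had correlations of 0.95 to 0.98 and were each highest in the library labelled brain.

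Genes of related families and pathways were found by protein name and did not share one order of libraries. Of 13 NLR relatives outside the rule, 7 were highest in head kidney (5.56% of all genes detected anywhere) and 2 lowest in ovary (8.99% of genes). Most of the 13 were loci named telomerase protein component 1, which also made up most of the 7. The 7 include C0J50_14798, at 0.744 FPKM or less in every library. It is counted here although it was not detected, and 12 of the 13 were detected anywhere. NOD1, a sensor of bacterial cell wall fragments, had 8.07 FPKM in head kidney, 3.95 in ovary and 0.613 in liver. NOD2, its relative, had 5.76 FPKM in head kidney and 0.0917 in ovary. Of 14 inflammasome and NOD partners, 2 were lowest in ovary (8.99% of all genes detected anywhere) and 5 highest there (23.5% of genes). These 5 included both loci named caspase-8 (37.3 and 15.9 FPKM), 1 locus of the kinase RIPK2 (13.8 FPKM) and the chaperone partner SGT1 (63.4 FPKM). The other RIPK2 locus, C0J50_03563, had 17.4 FPKM in spleen, 15.1 in testis and 1.16 in ovary. The median of these 14 was 6.27 FPKM in ovary, against 0.166 FPKM for the 212 members and 0.747 FPKM for all genes. ASC, the inflammasome adaptor, was highest in skin at 2.59 FPKM and had 0.0454 in ovary. Interleukin-1 beta was given by 2 loci. C0J50_16398 had 86.4 to 97.4 FPKM in the library labelled brain, spleen, head kidney and kidney and 0.714 in ovary, and C0J50_16399 reached 183 FPKM in the library labelled brain, with heart next at 4.88 and ovary at 0.

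The lists of other sensors also differed. Among all genes detected anywhere, 8.99% were lowest in ovary and 8.45% highest in the library labelled brain. The list counts also take in genes detected in no library, and a gene tied at its lowest value counts as lowest in none. Detected anywhere were 18 of the 25 Toll-like genes, 13 of the 14 NF-kappa-B genes and 107 of the 113 large-family genes. Of 25 Toll-like receptors and adaptors, 3 were lowest in ovary, near that share of all genes. Of 25 RNA and DNA sensors and interferon factors 10 were lowest in ovary, and of 14 NF-kappa-B genes 0. Of 113 genes of the TRIM, GIMAP and butyrophilin families, which are also large in fish, 25 were lowest in ovary and 29 highest in the library labelled brain. Their medians in ovary were 0.222 FPKM for the Toll-like list, 0.559 for the sensors, 3.21 for NF-kappa-B and 0.0618 for the large families.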

How the data were processed

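Per the labels' protocols, total RNA was treated with DNase, enriched for poly(A) RNA and made into paired-end libraries. The authors deposited FPKM per gene, and StringTie 1.3.4d stands in the list of tools, per the submitters' processing notes. For aligner, genome build and gene filter: not given in the sources used here. Coding lengths, positions, protein names and domain motifs came from the authors' deposited annotation of 25122 loci; all 212 members had values. Detection, enrichment, group, pair and cluster rules were computed with Python 3.11.15, numpy 2.4.6 and pandas 2.3.3, and figures with matplotlib 3.10.9. Copies of the tissue-enriched and lowest-library rules were checked on simulated data, and the other rules were not. With 1 library per tissue, 15 in all, no spread was estimated and no p-value computed. Alternative scales used median ratios across the 5659 genes that exceeded 1 FPKM in all libraries, or a common sum. Named genes followed a rule: the tissue-enriched members, the 5 highest by mean and by minimum, up to 3 per direction of a pair, up to 5 per group, rare product names, the members of the 3 largest clusters, the 3 examples in the choice of members and genes of the lists; others are said to have been chosen after seeing values. The 13 lists were matched by protein name. The members, lists and rules were chosen with earlier results of these data known. No gene or protein sequence was used here.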

Additional observations from a re-analysis of the deposited data

How the results depend on the processing

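Each result has 1 library per tissue, so no replicate could be left out. No paired analysis was possible because each tissue has 1 library and no test was made. In all, 256 alternative values were computed, of which 149 stayed within 1.5 times the reported value, counting values of 0 that stayed 0. The cause of the other changes was not tested, except that a stricter filter leaves fewer genes by construction. Detection in any library gave 108 members of at least 1 kb coding length and 91 with a NACHT motif. Detection in every library gave 29 at 0.5 FPKM, 0 at 2 FPKM, 4 with a NACHT motif and 41 without ovary. Detection in ovary gave 33 at 0.5 FPKM, 7 at 2 FPKM, 7 after median ratios and 7 with a NACHT motif. In the library labelled brain it gave 99 members of at least 1 kb and 86 with a NACHT motif. Of the members lowest in ovary, 84 were at least 1 kb long and 73 had a NACHT motif. Some alternatives, such as the group with the library labelled brain, were added after seeing the data. The 10-fold rule left 0 tissue-enriched members, and the group rule with 5 FPKM and 5-fold left 0 in each group. After median ratios the groups held 30 (skin and barbels), 2 (blood-forming) and 12 (skin, barbels and the library labelled brain), and with a common sum 26, 1 and 13. For the pairs, a pseudocount of 0.1 gave 1 member higher in head kidney and 4 in spleen, 16 for the library labelled brain over that labelled gill, and 44 higher in heart than in muscle. A minimum of 1 FPKM gave 51 higher in testis than in ovary. Median ratios gave 1 in spleen, 0 in ovary, 17 in testis, 3 in the library labelled brain, 2 in that labelled gill, 7 in heart and 1 in muscle. A common sum gave 2 in the library labelled gill and 1 in liver over pancreas. Clusters held 12 members with gaps up to 50 kb and 5 with at least 5 members required. The library labelled brain was highest for 39 members after median ratios and for 63 of those at 5 FPKM or more. Estimated fragments at 1 FPKM differed up to 6.61-fold between libraries at a given length, which limits low values in skin, barbels and muscle.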

Other observations

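A few values fall outside the comparisons of the report. The members took 0.360% of the summed FPKM in skin, 0.318% in the library labelled brain and 0.264% in spleen. The share was 0.0263% in ovary and lowest in pancreas, at 0.0245%. It also depends on a few dominant genes in each library. Among loci detected anywhere, the library labelled brain was highest for 28 of 43 NLRC3, 41 of 85 NLRP12 and 25 of 51 NLRP3. It was highest for 0 of the 11 NLRP1b loci, 95 of all 197 members and 8.45% of all genes detected anywhere. After median ratios the count over all members was 39 of 196 (4.42% of genes). C0J50_14796, a telomerase protein component 1 locus outside the rule, reached 69.2 FPKM in maxillary and 66.5 in mandibular barbel, with 32.4 in skin and no more than 23.6 elsewhere. C0J50_14801, of the same name, reached 49.0 FPKM in mandibular and 35.0 in maxillary barbel.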
